A study of Mus musculus with 6 samples.

Results

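The Hox, Sox, Fox, Tbx, Pax, Lhx and Nkx families of developmental transcription factors were examined for H3K9me3, the trimethylated form of lysine 9 on histone H3, in mouse endothelial progenitor cells (EPCs). The members are the autosomal regions of the deposited H3K9me3 tables whose gene name begins with a family name followed by its paralogue letter or number. There were 120 of them among 57177 autosomal regions and 58511 regions in all, and they carried 61 gene names. By family, Fox held 46 regions, Sox 30, Tbx 15, Hox 9, Pax 9, Lhx 7 and Nkx 4. A further distinction matters for reading the names, because 13 of the 120 regions were named for antisense or overlapping transcripts of a family gene (Lhx1os, Sox5os1, Sox5os2, Sox5os4, Sox5it, Hoxb3os, Hoxb5os and Tbx3os2) and not for the gene itself. The assay does not tell strands apart, so signal cannot be assigned to a gene or to its antisense partner.

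The cells came from bone marrow of C57BL/6J mice aged 8 weeks at delivery and formed 3 groups of 2 libraries, namely males (M-EPC), females (F-EPC) and females whose ovaries were removed at 35 days of age (OVX-EPC). All groups were depleted of lineage-positive cells, selected magnetically for Sca-1 and CD31 and grown in EGM-2 medium without estrogen. The mark was mapped by CUT&Tag, in which an antibody brings the Tn5 transposase to the marked chromatin. The libraries of a group were prepared from cells set aside in duplicate, and nothing states that they came from separate animals or cultures, so p-values measure the spread between these libraries, which may be technical. With 2 libraries per group an exact permutation test cannot pass 0.05, and chromatin data of this kind cannot check the cell type by its markers.

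H3K9me3 is a mark of constitutive heterochromatin and is bound by HP1 proteins. Developmental transcription factors are silenced in most tissues, and at their CpG-rich promoters this is chiefly the work of Polycomb complexes and H3K27me3, a separate mark. Members of these families also act in blood and vessel cells: Hox genes in blood progenitors, SoxF factors (Sox7, Sox17 and Sox18) in endothelial fate, and Foxo factors in endothelial quiescence.

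F-EPC reads covered the genome incompletely. In text order of the chromosome names, the earlier stop of its libraries fell in the region chr16:30556738-30557137, so F-EPC was used only in the 26999 regions up to that point (chromosomes 1, 10 to 15 and the start of 16), which hold 58 of the 120 members. Reads in regions ran from 288353 to 573821 per library, where the F-EPC totals are cut by their stops. In the 26999 regions used for F-EPC, the M-EPC pair had 200296 and 235301 reads and the F-EPC pair had 288353 and 252356. The OVX-EPC pair had 209015 and 223313 there. The X chromosome took 1.2% of region reads in both M-EPC libraries and 2.40% and 2.43% in OVX-EPC. The Y-linked genes Kdm5d and Eif2s3y had 28 and 20 reads in the M-EPC pair and 0 in both OVX-EPC libraries. Both match the sex on the labels of M-EPC and OVX-EPC. F-EPC reads stop before chromosomes X and Y, so the sex of its libraries could not be checked this way. In regions with complete F-EPC reads the members together took 382 and 392 reads in the M-EPC pair, 526 and 455 in the F-EPC pair and 367 and 347 in the OVX-EPC pair. These counts are not scaled for depth. In RPM, scaled by each library's reads in those regions, they were 1907 and 1666 for M-EPC, 1824 and 1803 for F-EPC and 1756 and 1554 for OVX-EPC. Both F-EPC libraries thus lay between the M-EPC libraries. The signal is from bulk chromatin, so a mark in fewer cells and less of the mark in each cell cannot be told apart.

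The sequences of 4 regions are given as examples. Each line gives 300 bases at the centre of a region, from the plus strand of mm10 (GRCm38, RefSeq), with CG pairs in capitals. The first comes from a strong promoter member, the second is the strongest member of all, and the others are single regions of the Tbx and Sox families.
Foxo3, promoter, chr10:42277637-42277936: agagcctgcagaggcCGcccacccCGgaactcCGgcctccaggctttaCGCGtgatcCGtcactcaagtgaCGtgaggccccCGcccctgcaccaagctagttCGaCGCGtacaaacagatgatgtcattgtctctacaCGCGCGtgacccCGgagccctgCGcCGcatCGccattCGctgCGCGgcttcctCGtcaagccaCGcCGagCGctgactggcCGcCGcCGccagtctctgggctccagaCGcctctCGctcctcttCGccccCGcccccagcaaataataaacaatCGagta
Foxk2, distal, chr11:121310566-121310865: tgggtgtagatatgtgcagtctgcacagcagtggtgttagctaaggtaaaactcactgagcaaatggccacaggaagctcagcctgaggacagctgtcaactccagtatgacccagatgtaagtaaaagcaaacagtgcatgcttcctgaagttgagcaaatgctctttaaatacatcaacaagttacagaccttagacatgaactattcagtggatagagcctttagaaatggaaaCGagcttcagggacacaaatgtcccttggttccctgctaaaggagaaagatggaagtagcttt
Tbx5, distal, chr5:119890823-119891122: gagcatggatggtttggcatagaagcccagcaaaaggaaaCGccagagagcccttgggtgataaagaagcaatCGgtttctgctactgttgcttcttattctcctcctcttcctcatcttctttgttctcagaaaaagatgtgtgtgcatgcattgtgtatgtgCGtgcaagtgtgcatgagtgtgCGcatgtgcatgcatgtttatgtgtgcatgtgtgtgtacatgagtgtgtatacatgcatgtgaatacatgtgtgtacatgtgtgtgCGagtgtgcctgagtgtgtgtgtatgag
Sox30, intron, chr11:46002877-46003176: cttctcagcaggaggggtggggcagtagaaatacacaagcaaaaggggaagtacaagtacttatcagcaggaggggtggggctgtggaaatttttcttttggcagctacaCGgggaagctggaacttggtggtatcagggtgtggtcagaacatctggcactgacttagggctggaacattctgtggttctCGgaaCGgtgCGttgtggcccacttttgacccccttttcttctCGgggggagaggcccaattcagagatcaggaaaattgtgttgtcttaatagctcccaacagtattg
The Foxo3 stretch holds 33 CG pairs and the Foxk2 stretch 1. The Tbx5 and Sox30 stretches hold 5 each. The Sox30 region was 97% repeat-masked and the Tbx5 region 63.75%. Most members were masked far less, with a median of 13.25% compared with 21% for all autosomal regions. In GENCODE M21 the Sox30 region lies in a Sox30 intron, and the other 3 lie in no annotated gene.

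To determine how far the families carry the mark at all, their protein-coding genes were counted. Only 53 of 141 family genes (37.6%) gave their name to a region, compared with 12290 of 20807 autosomal protein-coding genes (59.1%). The Hox family stood lowest at 6 of 39 genes (15.4%), and Sox stood highest at 12 of 18 (66.7%). Between them lay Tbx with 6 of 12, Fox with 19 of 41 (46.3%), Pax with 4 of 9 (44.4%), Nkx with 4 of 14 (28.6%) and Lhx with 2 of 8. A region takes the name of the nearest gene, so these shares also depend on how close together genes lie, as in the Hox clusters.

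**Figure D1:**
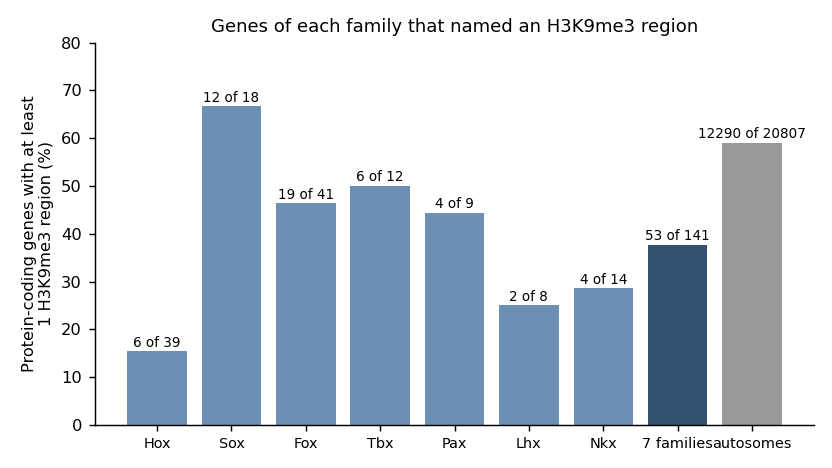
Share of protein-coding genes of each family that named at least 1 H3K9me3 region (bars, percent, with counts above), beside the share over the 7 families and over all autosomal protein-coding genes. Hox is lowest (6 of 39) and Sox highest (12 of 18).

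Of the 120 members, the authors' annotation placed 34 in promoters (28.3%), 55 in distal intergenic sequence, 24 in introns, 3 in exons, 2 in UTRs and 2 downstream of a gene. Over all autosomal regions 20.6% were promoters and 54.2% distal. The families differed in this, since 8 of 9 Hox regions were promoters but only 2 of 15 Tbx regions and 0 of 4 Nkx regions. Distal members lay 3.28 to 103.5 kb from their transcription start site (TSS), with a median of 34.1 kb, and 38 of the 55 were more than 20 kb away. In GENCODE M21, 50 members fell within the gene of their own name, 57 in no gene and 13 only in a gene of another name. The Lhx3 promoter region, for example, overlaps coding sequence of Qsox2, and a Pax9 region lies in an intron of Slc25a21. The gene that holds such a region is not the one whose name it carries.

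Member promoters were rich in CpG. Their median observed-to-expected CpG ratio was 0.685, and 21 of 34 (61.8%) exceeded 0.6, a common threshold for CpG islands, compared with 47.1% of all autosomal promoter regions. The remaining members had a median ratio of 0.165, near the 0.146 of all autosomal non-promoter regions. Of the member promoters, 21 of the 34 overlapped an annotated exon.

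The signal at these regions was weak. Over the M-EPC and OVX-EPC libraries the median member held 5.5 reads per library, compared with 6.5 for all autosomal regions and 13 for the 914 regions of Zfp zinc finger genes, whose clusters are known H3K9me3 targets. Member promoters held a median of 5.75 reads, compared with 9 for all autosomal promoter regions. Means ran from 0 to 29.25 reads per library, and 99 of the 120 members had fewer than 10. No member (0 of 120) was wider than the standard region width. The share over all autosomal regions was 0.827%, too low for 0 of 120 to differ from it.

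Summed by family, the reads were about equal in M-EPC and OVX-EPC for the families together but not for each of them. All families took 1570 ± 2.12 RPM (family reads scaled by the library's autosomal region reads) for M-EPC and 1583 ± 143 for OVX-EPC (SD, n = 2 in each group here and below). Hox (165 ± 35.8 for M-EPC and 162 ± 1.82 for OVX-EPC), Sox (339 ± 10.3 and 329 ± 92.4), Lhx (126 ± 18.7 and 109 ± 12.6) and Nkx (40.1 ± 28.2 and 34.5 ± 9.06) overlapped between the groups. The Fox family took 728 ± 2.95 for M-EPC and 661 ± 27.4 for OVX-EPC. Its libraries did not overlap, but with TMM scaling factors they did.

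**Figure D2:**
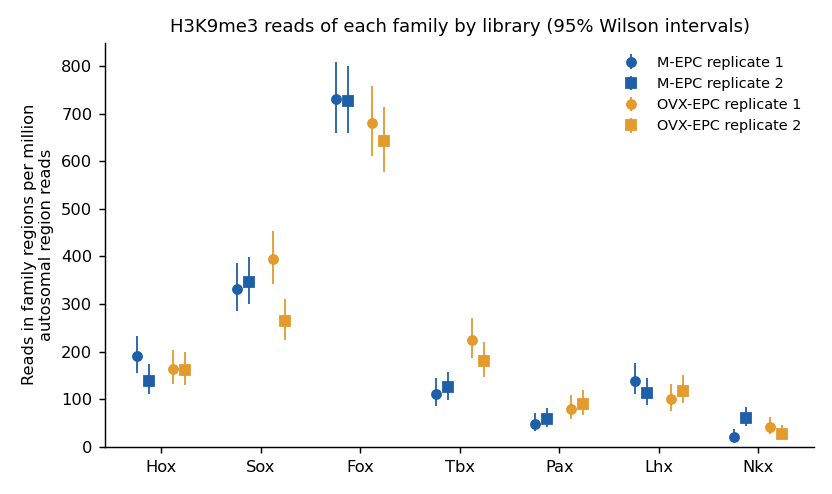
Reads in the regions of each family, in RPM, scaled by autosomal region reads (vertical axis), in both M-EPC and both OVX-EPC libraries, with 95% Wilson intervals that cover counting error only. The Tbx libraries of OVX-EPC lie at 225 and 180, above those of M-EPC at 111 and 125.

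The T-box family held more reads in OVX-EPC. Its 15 regions took 111 and 125 RPM in the M-EPC pair, against 225 and 180 in the OVX-EPC pair, a ratio of 1.71 between group means of 118 ± 10.0 and 202 ± 31.9. The groups did not overlap under the authors' factors, TMM factors or scaling to total region reads, where the ratio was 1.64, 1.84 and 1.71. The Pax family, with 9 regions, took 48.5 and 58.3 RPM in the M-EPC pair, against 79.7 and 89.8 in the OVX-EPC pair, a ratio of 1.59. Both are sums of few reads, 55 to 110 per library for Tbx and 24 to 48 for Pax, and no test was run on them because the families were chosen with results known. In regions with complete F-EPC reads, RPM were scaled by each library's reads in those regions alone. They are therefore not on the scale of the values above. The 3 Tbx regions there took 42.3 ± 17.8 RPM for M-EPC, 25.8 ± 2.81 for F-EPC and 42.0 ± 15.1 for OVX-EPC. The Tbx4 and Tbx19 reads described below go opposite ways. In the same subset the Sox family took 380 ± 15.2 for M-EPC, 501 ± 70.7 for F-EPC and 366 ± 105 for OVX-EPC, and Fox 976 ± 88.2, 914 ± 42.2 and 902 ± 2.94.

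By gene name, 15 of the 61 names had both OVX-EPC libraries above both M-EPC libraries and 12 had both below. Over all autosomal gene names, 17.7% were higher without overlap and 27.8% lower, beside 24.6% and 19.7% among the members. The Tbx names gave 6 of 7 higher and 1 lower under all 3 scalings. The 19 Fox names gave 4 higher and 7 lower, but 5 and 3 with TMM factors or total region reads.

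Tbx15 and Tbx5 supplied most T-box reads. Tbx15, a regulator of skeletal and adipose development, had 16 and 31 reads in its 5 regions in the M-EPC pair, against 45 and 39 in the OVX-EPC pair. Both OVX-EPC libraries were higher, and the M-EPC libraries were themselves far apart. Tbx5, which directs heart and forelimb formation, had 20 and 25 reads in 4 regions in the M-EPC pair, against 36 and 29 in the OVX-EPC pair. Its neighbours on chromosome 5, Tbx3 (2 and 2 reads in the M-EPC pair, 4 and 9 in OVX-EPC) and Tbx3os2 (4 and 4, then 7 and 8), were also without overlap. Tbx4 (4 and 3, then 10 and 7) and the cardiac factor Tbx20 (2 and 2, then 7 and 4) were likewise higher in OVX-EPC. The pituitary factor Tbx19 went the other way, with 7 and 4 reads in the M-EPC pair, against 1 and 0 in the OVX-EPC pair, and it held 1 read in each F-EPC library. F-EPC data exist for Tbx4 and Tbx19 only, where the 2 Tbx4 regions held 7 and 5 reads. Normalised for depth, these Tbx4 reads were 5.37 and 4.41 in the F-EPC pair, beside 4.80 and 2.92 in the M-EPC pair, which overlapped.

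**Figure D3:**
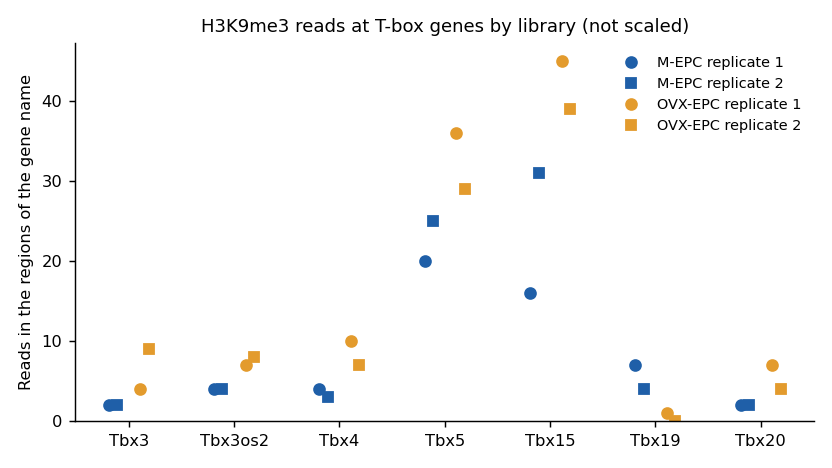
Reads in the H3K9me3 regions of each T-box gene name (vertical axis, not scaled) in M-EPC and OVX-EPC, with 1 point per library. OVX-EPC points lie above M-EPC points at 6 of the 7 names, from 2 reads at Tbx3 to 45 at Tbx15.

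Of the T-box genes, surroundings were compared for Tbx15 and Tbx5 only. All family regions were left out of them, among these Tbx3 and Tbx3os2 near Tbx5. These surroundings did not share the difference in size. The other regions within 1 Mb of Tbx15 had 229 ± 9.98 normalised reads (reads divided by the library's scaling factor) for M-EPC and 266 ± 21.1 for OVX-EPC, a ratio of 1.16, against 1.82 for Tbx15 itself. Around Tbx5 the ratio was 0.805 for 25 other regions, compared with 1.45 for the Tbx5 regions. No test was run on these ratios.

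Single regions were then compared in a fit over all regions. Limma-trend was applied to log2(value + 1), where value is the authors' normalised signal, and regions with a value of at least 10 in at least 2 libraries were tested. The filter is a strong limit for these families, since in OVX-EPC against M-EPC it let through 20 of 120 members (16.7%), compared with 29.1% of all autosomal regions. A member that entered only through the group where it is high was bound to differ, so counts refer to those tested. No Pax region was tested.

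In OVX-EPC against M-EPC, 0 of 20 members tested differed at an adjusted p under 0.05 in limma, with 1 at an unadjusted p under 0.05. Over all 16931 regions tested, 0.449% were called and 16.1% had an unadjusted p under 0.05. DESeq2 and edgeR on the recovered reads also called 0 members, and at an unadjusted p under 0.05 they had 0 and 1. The median log2 fold change of the members was -0.17, the same as the -0.17 of all autosomal regions tested. TMM factors moved the median of all regions to -0.01, so fold changes are best read relative to that shift. Relative to all autosomal regions, the members' median lay 0.00483 higher, and that of the 6 member promoters tested lay 0.15 above that of all promoter regions. The spread of these differences between replicates was 0.04 and 0.01. The 0.01 is not the uncertainty of the promoter median, since the 6 promoter regions had SEs of 0.29 to 0.41 each. Without the filter on low values the promoter difference was 0.049.

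The 1 member under the unadjusted threshold was an Lhx1os region far from the start site of this antisense transcript of Lhx1, the kidney and head organiser factor. It had 13 and 17 reads in the M-EPC pair, 12 and 22 in the F-EPC pair and 6 and 8 in the OVX-EPC pair. The OVX-EPC libraries were the lowest of all 6, and the F-EPC libraries reached both sides of M-EPC. Its log2 fold change was -1.01 in OVX-EPC against M-EPC, with an adjusted p of 0.264 in limma. It passed the filter only through M-EPC, so it was bound to be lower in OVX-EPC. The other Lhx1os regions tested gave -0.22 and 0.23, and Lhx3, a pituitary and motor neuron factor, gave -0.15.

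Among the Fox members all 8 tested regions had a log2 fold change below 0, with a median of -0.30 in OVX-EPC against M-EPC. Over all autosomal regions tested 10490 of 16616 were below 0, with a median of -0.17. With TMM factors 6 were below 0 and 2 above. The strongest member, a distal region 12.2 kb from Foxk2 (a forkhead factor that represses autophagy genes), had 34 and 34 reads in the M-EPC pair, 42 and 38 in the F-EPC pair and 22 and 27 in the OVX-EPC pair. Normalised for depth over the 6 libraries, this region had 36.93 ± 5.50 for M-EPC, 32.85 ± 0.906 for F-EPC and 25.36 ± 2.67 for OVX-EPC. Its log2 fold change in OVX-EPC was -0.47 ± 0.29 with an adjusted p of 0.406 in limma. A second Foxk2 region, 19.3 kb away and entirely repeat-masked, had 35 and 25 reads in the M-EPC pair, against 20 and 28 in the OVX-EPC pair, which overlapped. The strong Foxk1 region gave -0.29 ± 0.32 and the Foxj2 region -0.31 ± 0.30. Foxc2, a factor of lymphatic and vascular development, held 13 and 11 reads at its promoter in the M-EPC pair, against 10 and 11 in the OVX-EPC pair, a log2 fold change of -0.18.

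In the Hox family the reads concentrated on Hoxa5. Hoxa5, a patterning gene that also acts in blood progenitors and endothelium, had 25 and 31 reads in the M-EPC pair, against 24 and 28 in the OVX-EPC pair in its strongest region. A second region 1.1 kb from its start site had 25 and 17, then 17 and 24. The fold changes of -0.11 ± 0.29 and -0.04 ± 0.34 had adjusted p-values of 0.886 and 0.971 in limma, and their 1-SE ranges included 0. Of the other 7 Hox regions none reached 10 reads per library on average. Hoxd12 had 2 and 3 reads in the M-EPC pair, against 9 and 11 in the OVX-EPC pair, and Hoxa10 had 8 and 5, then 3 and 2, so members of this family lay on both sides.

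The Sox members tested were Sox12, Sox11 and Sox30. Sox12, a SoxC factor, had 11 and 12 reads at its promoter in the M-EPC pair, against 18 and 10 in the OVX-EPC pair, which overlapped (0.20 ± 0.40). The neural factor Sox11 had 7 regions, and the one tested gave 0.07 ± 0.44. Sox30, a factor of male germ cell development, gave -0.57 in a region that passed the filter only through M-EPC, where it was bound to be higher. Below the filter, the endothelial factor Sox17 had 1 and 3 reads at its promoter in M-EPC, 3 and 2 in the F-EPC pair and 8 and 9 in the OVX-EPC pair. Sox18 had 6 and 16, then 4 and 7 in OVX-EPC, which overlapped. Nkx2-5, a core cardiac factor, had 4 and 21 reads in the M-EPC pair, against 6 and 11 in the OVX-EPC pair, with the M-EPC libraries on both sides of OVX-EPC (-0.20 ± 0.56).

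**Figure D4:**
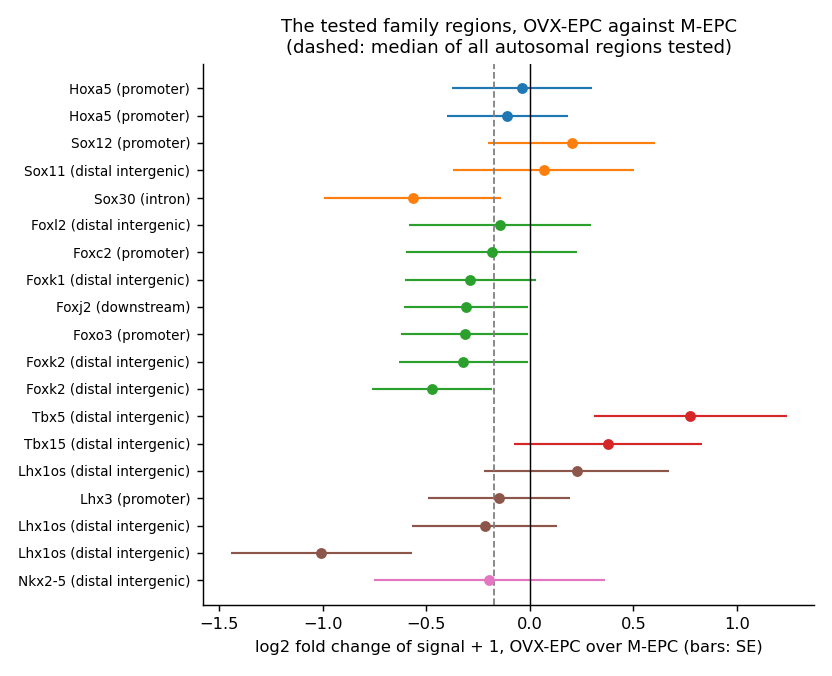
Log2 fold change of signal + 1 in OVX-EPC over M-EPC (horizontal axis, bars show 1 SE) for 19 tested members, coloured by family, with the median of all autosomal regions tested at -0.17 as a dashed line. The 7 Fox regions shown and 1 Lhx1os region at -1.01 lie below 0, and both Tbx regions lie above it, at 0.78 and 0.38. The regions of Tbx5 and Sox30 and the Lhx1os region at -1.01 passed the filter through 1 group alone.

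Of the T-box regions 2 were tested. The Tbx5 region with the printed sequence had 5 and 10 reads in the M-EPC pair, against 14 and 12 in the OVX-EPC pair, a log2 fold change of 0.78. It passed the filter only through OVX-EPC, so this direction was fixed by the filter and is no support for a T-box pattern. The Tbx15 region gave 0.38 ± 0.45, from 11 and 7 reads in the M-EPC pair, against 14 and 10 in the OVX-EPC pair. Without the filter on low values, 12 members in OVX-EPC against M-EPC had an unadjusted p under 0.05, or 10.1% of 119, compared with 10.3% of all regions, and 0 had an adjusted p under 0.05. They included a Sox5os1 intron region (2.17), 2 Tbx15 regions (1.66 and 1.32), Sox17 (1.74), Hoxd12 (1.65), a Pax2 region (1.64) and a Foxn3 promoter region (1.505). On the lower side were Foxo3 (-2.26), Foxp1 (-2.22), Tbx19 (-2.14) and an Lhx1os region (-1.01).

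F-EPC against M-EPC gave a like count. Of 16 members tested 0 were called in limma and 1 had an unadjusted p under 0.05, compared with 1.79% called and 22.8% of all 8139 regions. DESeq2 and edgeR called 0, with 0 and 2 at an unadjusted p under 0.05. In the Hox, Sox and Lhx families the smallest p-values belonged to Hoxb5os (-1.32), with 8 and 10 reads in the M-EPC pair and 4 and 4 in F-EPC, to a Sox30 region (0.67) and to Lhx1os (-0.24 ± 0.38, adjusted p 0.735 in limma). The Hoxb5os region passed the filter only through M-EPC and the Sox30 region only through F-EPC, so their directions were fixed by the filter. The same holds for the 1 member under the unadjusted threshold, which passed through a single group. The members' median of -0.17 lay beside -0.19 for all autosomal regions tested.

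OVX-EPC against F-EPC compares the 2 female groups. Of 11 members tested 0 were called in limma and 2 had an unadjusted p under 0.05, compared with 0.0127% and 6.22% of all 7897 regions. DESeq2 and edgeR called 0, with 0 and 2 at an unadjusted p under 0.05. Both were neighbouring Sox30 intron regions. The region at chr11:46002827-46003226 had 25 and 21 reads in F-EPC, 9 and 8 in OVX-EPC and 12 and 14 in M-EPC, and the one at chr11:46003648-46004047 had 19 and 14, 7 and 4, and 7 and 8. F-EPC was highest and without overlap in both. The first gave a log2 fold change of -1.01 ± 0.36 with an adjusted p of 0.768 in limma. The second gave -1.14, but it passed the filter only through F-EPC, so its direction and its place among the 2 were fixed by the filter. The members' median of -0.36 was lower than the 0.03 of all autosomal regions tested, by 0.39 with a spread between replicates of 0.15, and the difference shrank to -0.17 without F-EPC replicate 1 and -0.16 without F-EPC replicate 2.

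The contrast of F-EPC and OVX-EPC together with M-EPC tests for a difference by sex over all 6 libraries. Of 14 members tested 0 were called in limma and 1 had an unadjusted p under 0.05, compared with 3.78% and 22.0% of 8695 regions. DESeq2 and edgeR called 0, with 0 and 1 at an unadjusted p under 0.05. These comparisons share their M-EPC libraries, so they are not independent of each other.

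Because few members could be tested singly, the regions of each gene name were summed and tested over all gene names, a choice made after the sparseness of the regions was seen. In OVX-EPC against M-EPC 0 of 25 member names were called in limma and 4 had an unadjusted p under 0.05, compared with 5.36% and 21.9% of 13347 names. DESeq2 and edgeR called 0, with 0 and 4 at an unadjusted p under 0.05. In F-EPC against M-EPC the counts were 0 and 2 of 10, compared with 11.6% and 28.1%, and DESeq2 and edgeR called 0, with 0 and 3. In OVX-EPC against F-EPC they were 0 and 2 of 9, compared with 0.0188% and 7.29%, and DESeq2 and edgeR called 0, with 1 and 1. In the combined contrast 1 of 10 names was called and 3 had an unadjusted p under 0.05, compared with 14.7% and 29.5% of 5637 names, so 1 of 10 lies near the background. edgeR called 1 and DESeq2 0.

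The 1 call was Foxo3, a forkhead factor that restrains proliferation and maintains stem cell quiescence. Its 6 regions, from the promoter shown above to a distal region 101 kb from the start site, held 66 and 67 reads in the M-EPC pair, 70 and 49 in the F-EPC pair and 52 and 41 in the OVX-EPC pair. Normalised for depth over the 6 libraries they were 72.2 ± 9.99, 48.4 ± 7.42 and 48.4 ± 9.98, and both M-EPC libraries lay above all others. The log2 fold change was -0.57 ± 0.20 with an adjusted p of 0.0405 in limma. The call was lost with DESeq2 (adjusted p 0.342), with TMM factors (0.195), with a replicate block (0.0605) and without M-EPC replicate 1 (0.392), F-EPC replicate 1 (0.0697), F-EPC replicate 2 (0.164) or OVX-EPC replicate 2 (0.143). One Foxo3 intron region (chr10:42242462-42242861) held 2 and 7 reads in the M-EPC pair and 0 in the 4 other libraries, and the promoter region alone gave -0.43 ± 0.27. In this contrast 1975 of 2515 autosomal promoter regions tested were below 0, with a median of -0.35.

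The surroundings of Foxo3 were lower in the female groups as well, as were most regions under these factors. In the combined contrast 5268 of 8695 autosomal regions tested were below 0, with a median log2 fold change of -0.16. With TMM factors that median was 0.005. The 97 other regions within 1 Mb had 1443 ± 132 normalised reads for M-EPC, 1110 ± 24.3 for F-EPC and 1211 ± 78.4 for OVX-EPC, ratios of 0.769 and 0.839 to M-EPC, beside 0.671 for Foxo3 in both groups. Foxk2 and its 91 neighbouring regions showed a like pair of ratios, with 0.721 for Foxk2 and 0.815 for the neighbours in OVX-EPC. Sox30 differed from its surroundings in F-EPC, with a ratio to M-EPC of 1.46 against 0.860 for its 38 neighbours. These ratios were not tested.

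**Figure D5:**
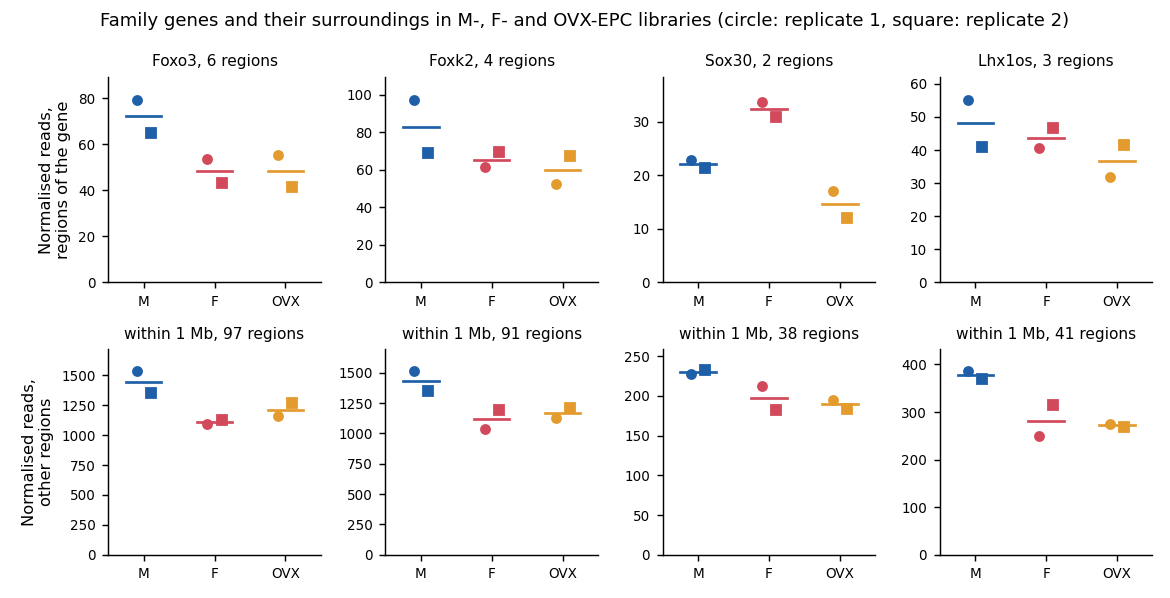
Normalised reads (vertical axes, each starting at 0) in the regions of 4 family gene names (upper row) and in the other regions within 1 Mb of them, family regions left out (lower row). Points are the 2 libraries of each group (M, F and OVX), with group means as lines. The means of Foxo3 and Foxk2 and of their surroundings are higher in M-EPC than in F-EPC and OVX-EPC, and Sox30 is highest in F-EPC.

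The other sums described next had an unadjusted p under 0.05 and were not called. Tbx15 came nearest in OVX-EPC against M-EPC, at 0.87 ± 0.29 with an adjusted p of 0.0563 in limma. Across the other tools, scalings and left-out libraries this p ran from 0.0121, without M-EPC replicate 2, to 0.722 in DESeq2. The kidney and eye factor Pax2 gave 1.40 ± 0.66, from 8 and 2 reads in the M-EPC pair, against 14 and 12 in the OVX-EPC pair (adjusted p 0.191 in limma). It ran from 0.51 without M-EPC replicate 2 to 2.29 without M-EPC replicate 1, and it passed the filter only through OVX-EPC. The antisense transcript Sox5os2 gave -1.23 ± 0.50, from 16 and 17 reads and then 7 and 6 (adjusted p 0.12 in limma), and it passed the filter only through M-EPC. In OVX-EPC against F-EPC the Sox30 sum gave -1.11 ± 0.32 (adjusted p 0.231 in limma) and the Sox11 sum -0.50 ± 0.24 (adjusted p 0.664), which ran from -0.97 without OVX-EPC replicate 1 to -0.04 without OVX-EPC replicate 2. The Foxk2 sum in the combined contrast gave -0.39 ± 0.19 (adjusted p 0.151 in limma), and it was called only without M-EPC replicate 2 (-0.63, adjusted p 0.0361) and fell to -0.14 without M-EPC replicate 1. The Foxo3 sum gave -0.53 ± 0.24 in OVX-EPC (adjusted p 0.181) and -0.57 ± 0.23 in F-EPC (0.0891, or 0.0248 without M-EPC replicate 2) against M-EPC, from the same M-EPC libraries as its combined value.

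Of a list of 20 family genes with roles in endothelium or blood, 11 had a region, 21 regions in all. Foxc1, Foxf1, Hoxa3, Hoxa9, Hoxb4, Hoxb5, Lhx2, Pax5 and Tbx21 had none. These regions held 0.5 to 27 reads per library, and 4 of 21 reached 10. The same 4 were tested in OVX-EPC against M-EPC (Foxo3, Foxc2 and the 2 Hoxa5 regions), all promoters with log2 fold changes below 0 and a median of -0.15. Over all autosomal promoter regions tested, 4240 of 5693 were below 0 with a median of -0.28, and with TMM factors both Hoxa5 regions were above 0 (0.05 and 0.12). Of the 4, 0 were called or had an unadjusted p under 0.05 in limma.

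Other transcription factor genes of development, such as Gata, Irx, Meis and Pitx genes, had 184 regions. Of 40 tested in OVX-EPC against M-EPC 1 was called, near Meis3 (-1.86), and their median was 0.22. In F-EPC against M-EPC 0 of 48 were called, with 13 at an unadjusted p under 0.05 in limma and a median of 0.53, compared with -0.17 for the 16 tested members of the families described here. In the combined contrast 3 of 49 were called, 2 near Pitx1 (0.90 and 1.15) and 1 near Irx1 (1.92), and with TMM factors 6 were, all higher in the female groups. Zfp regions had medians of -0.23 in OVX-EPC and -0.55 in F-EPC against M-EPC, with 1 of 593 and 9 of 154 called. The difference between these lists and the families was not tested.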

How the data were processed

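H3K9me3 CUT&Tag was measured in 6 libraries of mouse EPCs, 2 each from males (M-EPC), females (F-EPC) and ovariectomised females (OVX-EPC). Per the methods, the authors trimmed paired-end reads to 25 bases, aligned them to mm10 with Bowtie2, dropped reads of mapping quality under 10 and Picard duplicates, and called peaks with MACS. The submitters' processing notes name BWA and MACS2 instead. Short reads and the quality limit lower the signal in repeats, and duplicate removal limits it at strong regions.

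The deposited tables, 1 for each pair of groups, give a normalised signal per region and library, which is whole reads divided by 1 factor per library. All values (100%) were recovered as whole reads within 0.001. The factors differ between tables (0.80 to 1.25), so values were tested within a table, and only the combined contrast used common median-of-ratios factors from regions with complete F-EPC reads. The authors' columns of log2 fold changes and p-values were not used. Per the file headers the tables also carry the authors' annotation.

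Regions with a value of at least 10 in at least 2 libraries were tested with limma 3.58.1 on log2(value + 1) with a mean-variance trend and Benjamini-Hochberg adjustment over all regions (R 4.3.3). Such fold changes understate those of weak regions. edgeR 4.0.16 and DESeq2 1.42.0 were run on the recovered reads as alternatives. The design named a fit per region, and sums over gene names were added later. The fit was tested on simulated data. Regions counted as promoters lie within about 3 kb of a TSS by the authors' annotation, and 95.2% of those within 1 kb lay within 1000 bases of a GENCODE M21 TSS of their gene. Depth is the sum of reads in regions. Intervals and floors cover counting error only.

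Named regions are the 2 of smallest p per family in OVX-EPC against M-EPC, the 2 strongest per family, the 1 of smallest p per family in F-EPC against M-EPC and any called, with listed endothelial and blood genes by count. Other regions below the filter and the surroundings within 1 Mb were named after their values were seen. The members and gene lists were chosen with earlier results of these data known. Results for 1 gene and the sequences of some regions are not reported here.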

Additional observations from a re-analysis of the deposited data

How the results depend on the processing

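The call counts of single regions were 0 in each comparison under every alternative run. Without each library in turn, the number of member gene names called ran from 0 to 1 in OVX-EPC against M-EPC, from 0 to 2 in F-EPC against M-EPC and from 0 to 2 in the combined contrast, where DESeq2 gave 0. Libraries of the same replicate number did not visibly deviate together (r = -0.0179, -0.0522 and -0.0311 in the 3 tables). With few reads per region this cannot exclude that same-numbered libraries were prepared together. A replicate block gave 0 member regions called in each comparison and 0 gene names in the combined contrast.

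The difference between the median log2 fold change of the members and that of all autosomal regions depended on the settings. In OVX-EPC against M-EPC it was -0.106 without a filter, -0.208 with a minimum of 30, and -0.094 to 0.087 without single libraries. For promoters it was 0.167 with TMM factors, 0.112 with a pseudocount of 5, 0.049 without a filter, 0.181 with the GC trend removed and 0.098 to 0.157 without single libraries. In F-EPC against M-EPC it was 0.094 with TMM factors, -0.065 without a filter, 0.245 with a minimum of 30, -0.076 with the GC trend removed and -0.121 to 0.126 without single libraries, and for promoters -0.61 to 0.052. In OVX-EPC against F-EPC it was -0.032 without a filter and -0.46 to -0.157 without single libraries. The causes were not tested.

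Signs of fold changes near 0 turned in OVX-EPC against M-EPC. The Hoxa5 regions gave 0.049 and 0.117 with TMM factors, the first 0.08 with the GC trend removed (0.08 with the replicate block as well) and the second 0.001 with total region reads and -0.424 to 0.344 without single libraries. Lhx3 gave 0.004 with TMM factors, and Sox11 -0.137 with the GC trend removed, with or without the replicate block. Without single libraries Foxk2 (the repeat-masked region) ran from -0.676 to 0.035, Lhx1os from -0.584 to 0.146, Sox11 from -0.008 to 0.526, Nkx2-5 from -1.153 to 0.149, Sox12 from -0.237 to 0.641, Lhx3 from -0.429 to 0.13 and Tbx15 from -0.025 to 0.647, the second Hoxa5 region gave 0.15 without OVX-EPC replicate 1. Lhx1os ran from -0.746 to 0.263 in F-EPC against M-EPC. Depth limits these results, since 99 of 120 members held fewer than 10 reads per library and 27 could be tested in any comparison.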
